A study of Rattus norvegicus with 18 samples.

Results

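Rat heart allografts from recipients given a short oral course of cyclosporine were compared with grafts from untreated recipients. The comparison rests on 6 of the 18 arrays of the study, the 3 cyclosporine grafts and the 3 untreated grafts, 1 of each on days 1, 3 and 7 after transplantation, and each cyclosporine array was set against the untreated array of its own day. These 6 are among 9 heart arrays, and the other 9 arrays of the study are from T cells. Donors were Wistar Furth rats (RT1.Au) and recipients ACI rats (RT1.Aa), both adult, male and inbred, so graft and host carry different alleles of RT1.A, a class I antigen of the rat. The donor heart was placed in the recipient's abdomen as an additional heart. Untreated recipients had the transplant and no drug. Cyclosporine recipients received 10 mg/kg/day by gavage on days 0 to 2, a dose that the protocol calls sub-therapeutic, so the arrays of days 3 and 7 were taken after the last dose. The 3 remaining heart arrays came from recipients given the same course and, at transplantation, 1 mg/kg of an allochimeric peptide of that antigen by the portal vein. They are used here for the spread between arrays and for values side by side. In the tests of a single day and of changes between days they are also pooled with the cyclosporine arrays. Nothing in the labels tells whether 2 arrays came from the same animal or from pooled RNA. The p-values therefore reflect only how far these samples vary, and that variation may be technical.

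Cyclosporine binds the prolyl isomerase cyclophilin A inside cells, and the complex blocks calcineurin, a calcium-dependent phosphatase. Calcineurin normally removes phosphates from the NFAT transcription factors so that they enter the nucleus of a stimulated T cell and switch on cytokines such as interleukin 2 and interferon gamma. Heart muscle also uses calcineurin and NFAT in its response to stress. In an untreated graft between such strains, early injury by surgery and reperfusion draws in neutrophils and monocytes, and T cells with interferon gamma responses follow as rejection proceeds.

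Signal is the deposited intensity of a probe set, and differences are cyclosporine minus untreated on the log2(signal + 16) scale, where 1 is a 2-fold difference and weak genes are understated. Unless stated otherwise, values are given in the order of days 1, 3 and 7. The heart arrays had similar overall scale, with upper quartiles between 742.4 and 757.6. The labelled tissue was borne out by its markers, since 21 genes of the contractile apparatus summed to between 186059 and 254665 in hearts and between 1174 and 1687 in T cells. The ratio of 3' to 5' actin control signal, which increases when RNA is shortened, was 1.843, 1.644 and 1.412 in untreated grafts and 2.273, 1.865 and 1.414 in cyclosporine grafts, so it was higher with the drug on days 1 and 3 and about level on day 7. Its part in the differences below was not tested. In whole grafts, fewer cells of a type and less RNA per cell cannot be told apart.

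Across 19737 probe sets, cyclosporine and untreated grafts differed little, and what differed was mostly not the same from day to day. The SD of the differences over probe sets was 0.21, 0.26 and 0.25. Over probe sets, which share the arrays and are not independent, the differences of days 1 and 3 correlated at r = 0.06 (rho = 0.08), those of days 1 and 7 at 0.14 (0.14) and those of days 3 and 7 at 0.18 (0.18). The mean of the 3 same-day differences was tested with limma, in a fit of treatment and day to the 9 heart arrays with 4 residual degrees of freedom. Of the 19737 probe sets, 0 (0%) had a Benjamini-Hochberg adjusted p below 0.05 in that fit, and 2288 (11.6%) had an unadjusted p below 0.05, 1268 higher (6.42%) and 1020 lower (5.17%). The lowest adjusted p was 0.125. In sign alone, 3293 probe sets (16.7%) were higher on all 3 days and 3055 (15.5%) lower. Past a difference of 0.5 on all 3 days there were 6 higher (0.0304%) and 26 lower (0.132%).

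A single day has 1 array per treatment, so a day could be tested only by taking the cyclosporine array and the cyclosporine plus peptide array of that day together against the lone untreated array. This assumes that the peptide adds nothing and that the untreated array varies like the others, with 3 residual degrees of freedom. Under that test, limma called 0 probe sets on day 1 (1343 at an unadjusted p below 0.05, 6.8%), 493 on day 3 (2.5%) and 841 on day 7 (4.26%). On day 3, 272 were higher (1.38%) and 221 lower (1.12%), a share of 55.2% higher that became 71% when arrays were centred on their medians. On day 7, 566 were higher (2.87%) and 275 lower (1.39%). Leaving out each cyclosporine-given array in turn kept 183 (37.1%) of the day 3 calls and 276 (32.8%) of the day 7 calls in all 6 refits. Days 3 and 7 shared 107 called probe sets, 21.7% of the day 3 calls and 12.7% of the day 7 calls, of which 86 moved in the same direction. In what follows, single-day p-values are adjusted p-values of this limma test, and the word "treated" means both cyclosporine-given grafts of the day.

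Ranked by the smallest of the 3 same-day differences, the genes lower with cyclosporine on every day were led by Saa3, Hspa1a, Il6, Inhbb and Ankrd2, followed by Tgm1 and Hp, and they include acute-phase and neutrophil genes. Saa3, an acute-phase serum amyloid A made at inflamed sites, had signals of 338, 1594 and 560 in untreated grafts and 96.3, 272 and 290 in cyclosporine grafts. It was lower on each day, by 3.16-, 5.6- and 1.88-fold, with a mean difference of -1.68 ± 0.52 (SE; adjusted p = 0.317). In the peptide group, which shares these untreated controls, Saa3 read 273, 192 and 713, so the day 7 value lay above the untreated one there. Il6, the cytokine that drives the acute-phase response, read 641, 915 and 190 untreated against 305, 520 and 102 with cyclosporine. The differences of -1.03, -0.80 and -0.81 were close to each other, and their mean was -0.88 ± 0.13 (SE; adjusted p = 0.128). With the peptide added, Il6 stood at 464, 820 and 106, again under the untreated graft of the same day.

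The sequences before the start of Il6 and Saa3 are shown because both are acute-phase list genes among the 3 ranked first on the lower side. Each is 250 bases from the RefSeq annotation of the rat build GRCr8, 5′ to 3′ on the gene's strand and ending at the base before the start. Il6 lies at chr4:5894576-5894825 and Saa3 at chr1:106358431-106358680, both on the minus strand. Capitals mark matches on either strand to the motifs named after C/EBP (TTGCNNAA), kappa B (the NF-kappa B consensus) and the NFAT core (TGGAAA).
Il6: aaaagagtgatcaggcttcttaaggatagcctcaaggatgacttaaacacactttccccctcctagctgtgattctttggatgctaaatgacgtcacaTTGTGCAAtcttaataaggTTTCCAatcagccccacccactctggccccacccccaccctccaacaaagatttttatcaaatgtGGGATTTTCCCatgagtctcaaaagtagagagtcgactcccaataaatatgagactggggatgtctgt
Saa3: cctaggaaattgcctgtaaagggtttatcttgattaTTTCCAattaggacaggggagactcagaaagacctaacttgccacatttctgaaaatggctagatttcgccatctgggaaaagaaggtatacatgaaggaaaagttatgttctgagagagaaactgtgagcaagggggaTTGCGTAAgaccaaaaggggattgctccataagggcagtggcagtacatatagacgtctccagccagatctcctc
In Il6 the C/EBP match begins 152 bases before the start, the NFAT core 133 bases before, and a pair of overlapping kappa B matches, 1 on each strand, 68 and 67 bases before. In Saa3 the NFAT core begins 214 and the C/EBP match 75 bases before the start. Of the 15 genes named as lower on all days, 12 had a promoter in the reference, and the C/EBP motif was in 4 of these (33.3%), against 9.22% of all 33469 promoters. Kappa B was in 3 (25%, against 16.4%) and the NFAT core in 3 (25%, against 19.7%). Among 14 promoters of 11 genes named as higher on all days, C/EBP was in 1 (7.14%). A match describes the letters only, and no match says nothing about a factor.

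Of 22 tested genes of acute-phase proteins and inflammatory cytokines, 18, 21 and 14 were lower on the 3 days, against 49.3%, 50.2% and 49.8% of all probe sets. The medians were -0.40, -0.60 and -0.17, where all probe sets had 0.00 on each day, and 11 of 22 were lower on all 3 days, against 15.5% of all probe sets. Without the day 3 arrays the median of the mean differences was -0.11, against -0.37 with all days. Hp (haptoglobin, which binds free hemoglobin) read 386, 895 and 172 untreated and 174, 285 and 110 with cyclosporine. Orm1 (orosomucoid) read 287, 541 and 152 against 136, 156 and 106. Lcn2 (lipocalin 2, an iron-siderophore binder stored in neutrophil granules) read 5378, 12652 and 1735 against 2450, 4779 and 1589. All 3 were lowest relative to control on day 3 and nearest to it on day 7. Tnf, an early inflammatory cytokine, was furthest from control on day 1, at 97.3 against 244, and level on day 7, at 413 against 435. Timp1, an inhibitor of metalloproteinases, was lower by nearly the same amount each day, at -0.37, -0.37 and -0.34. In the single-day test 5 of the 22 fell on day 3, where 1.12% of all probe sets did. They were C3, Hp, Il1b, Il1rn and Serpina3n, of which C3, Il1b and Serpina3n were called in all 6 refits without an array. Serpina3n, a serine protease inhibitor, had a treated difference of -1.55 ± 0.16 on day 3 (SE; adjusted p = 0.0128). Hp had -1.66 ± 0.32 (adjusted p = 0.0417), and its adjusted p went up to 0.0794 in the 4 refits that each lacked a treated array of day 1 or day 3. On day 7 the calls of this list were mostly upward, since A2m, C3 and Il1b rose, where 2.87% of all probe sets did, and Il1rn fell, where 1.39% did. Of these 4 day 7 calls, that of C3 was made in all 6 refits. Il1b, the inflammatory cytokine interleukin 1 beta, read 1281, 2008 and 1849 untreated and 945, 1291 and 2458 with cyclosporine. Its treated difference was -0.64 ± 0.08 on day 3 (SE; adjusted p = 0.0168) and 0.41 ± 0.08 on day 7 (SE; adjusted p = 0.0267), so it was lower on days 1 and 3 and higher on day 7.

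Neutrophil markers were lower with cyclosporine on days 1 and 3 and closer to control on day 7. All 8 tested members were lower on day 1 (median -1.05) and on day 3 (median -0.84), and 7 on day 7 (median -0.21). Of the 8, 7 were lower on all 3 days, against 15.5% of all probe sets. S100a8 and S100a9 encode the subunits of calprotectin, abundant in neutrophil cytoplasm. S100a8 read 2524, 2864 and 295 untreated and 1008, 1092 and 200 with cyclosporine. S100a9 read 6020, 6403 and 503 against 2239, 2690 and 432. The mean difference of S100a8 was -1.07 ± 0.23 (SE; adjusted p = 0.202), and it was called without the day 7 arrays (-1.34, adjusted p = 0.0259) or without the untreated day 7 array (-1.42, adjusted p = 0.0492). Mmp8, neutrophil collagenase, read 512, 378 and 116 against 172, 165 and 122. Mmp9 (gelatinase B) was lower on each day, at -0.98, -0.51 and -0.69. The receptors Il1r2, Cxcr2 and Csf3r had differences of -0.77, -0.56 and -0.64 on day 1 and of -0.20, -0.02 and -0.22 on day 7. In the single-day test S100a8 (-1.32 ± 0.27 SE, adjusted p = 0.0489) and Mmp8 (-1.02 ± 0.21 SE, adjusted p = 0.0493) fell on day 3, and each call was lost in 4 of 6 refits without an array. The summed signal of the 10 measured neutrophil genes was 17957, 25671 and 3978 in untreated and 7962, 11088 and 3433 in cyclosporine grafts. It was far lower on day 7 than on day 3 in both groups, and the acute-phase differences were smaller on day 7 too. Whether neutrophil content takes part in those differences was not tested.

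**Figure D1:**
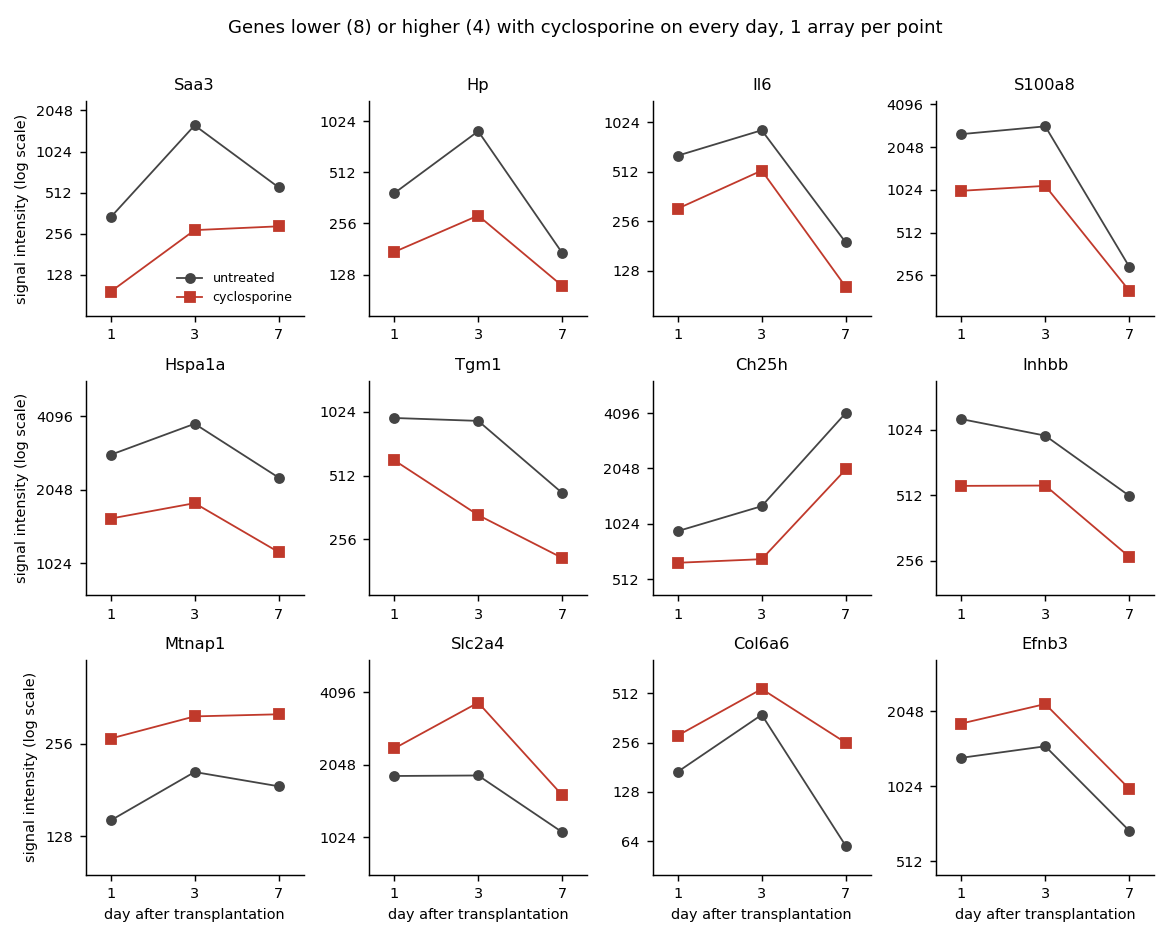
Signal (log axis) against day after transplantation for 12 genes, with untreated grafts as circles and cyclosporine grafts as squares, 1 array per point. Saa3, Hp, Il6, S100a8, Hspa1a, Tgm1, Ch25h and Inhbb lie lower with cyclosporine on each of the 3 days, and Mtnap1, Slc2a4, Col6a6 and Efnb3 lie higher, while the level of most of these genes differs more between days than between treatments.

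Several stress and hormone-responsive genes were also lower on each day. Hspa1a, an inducible heat shock protein of the HSP70 family, read 2849, 3816 and 2299 untreated and 1562, 1806 and 1139 with cyclosporine. It was lower by 1.82-, 2.1- and 2-fold, but the peptide day 3 graft had 5186, above every untreated graft. Hspa1a has a near-identical copy, Hspa1b, and the probe set may read both. The heat shock list as a whole did not share this, with medians of -0.02, -0.08 and -0.02 over 21 genes. Of 18 unfolded protein response genes, 13 were lower on all 3 days (medians -0.19, -0.28 and -0.10), against 15.5% of all probe sets. On day 3, 7 fell, where 1.12% of all probe sets did, and Ddit3, the stress-induced transcription factor CHOP, rose (0.48 ± 0.09 SE, adjusted p = 0.0397), where 1.38% did. The call of Ddit3 was lost in some refits. Among the 7, Hspa5, the main chaperone of the endoplasmic reticulum, read 10516, 10099 and 8689 against 9111, 8044 and 7708. Its treated difference on day 3 was -0.39 ± 0.06 (SE; adjusted p = 0.0279, up to 0.052 without a treated array of day 1). With 1 array left out the day 3 count ranged from 1 to 7.

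Immediate early genes, which encode transcription factors and regulators switched on within minutes of a stimulus, were lower mainly on day 3. The medians of 24 genes were -0.16, -0.53 and -0.03, with 21, 21 and 13 lower. Of the 24, 10 were lower on all 3 days, against 15.5% of all probe sets. Fosb read 142, 238 and 162 untreated and 66.5, 122 and 118 with cyclosporine. Myc read 1557, 1427 and 1044 against 1105, 855 and 840. Fos was level on days 1 and 7 but read 1090 with cyclosporine against 4095 untreated on day 3, a treated difference of -1.61 ± 0.24 (SE; adjusted p = 0.022). On day 3, 7 of the 24 fell, where 1.12% of all probe sets did, and Dusp1, Fos, Nr4a1 and Zfp36 were called in all 6 refits.

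Genes that answer to glucocorticoids or fasting were also mostly lower. Of 16 genes of the glucocorticoid list, 11 were lower on all 3 days, against 15.5% of all probe sets. The medians were -0.21, -0.39 and -0.19. Angptl4, an inhibitor of lipoprotein lipase, read 6300, 5135 and 2081 untreated and 4417, 2798 and 1023 with cyclosporine, so the gap widened from -0.51 to -0.87 and -1.01. That widening was not itself called. Mt2A, a metal-binding metallothionein, read 5453, 7045 and 3922 against 3959, 4246 and 1696, and in the treated test of day 7 it fell by 1.00 ± 0.15 (SE; adjusted p = 0.0115). Pdk4, the kinase that turns off pyruvate dehydrogenase, read 5003, 3938 and 693 against 3625, 1998 and 464.

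Tgm1 and Ch25h were lower on every day and were called on both day 3 and day 7. Tgm1, a transglutaminase best known from skin, read 959, 929 and 424 untreated, 605, 333 and 209 with cyclosporine and 651, 354 and 205 with the peptide added. Its treated differences were -1.39 ± 0.11 on day 3 (SE; adjusted p = 0.0106) and -0.98 ± 0.11 on day 7 (adjusted p = 0.00325). Ch25h, which makes the oxysterol 25-hydroxycholesterol, was highest on day 7 in both groups, at 934, 1277 and 4103 untreated and 628, 657 and 2023 with cyclosporine. Its treated differences were -0.84 ± 0.11 on day 3 (SE; adjusted p = 0.0177) and -1.08 ± 0.11 on day 7 (adjusted p = 0.00245). Both genes were called on both days in all 6 refits. Inhbb, the beta B subunit of activin and inhibin, read 1145, 961 and 509 against 565, 567 and 267. It fell on day 7 (-0.86 ± 0.17 SE, adjusted p = 0.0282, up to 0.0958 without either treated day 7 array).

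The other lower genes were spread over muscle, myeloid and metabolic functions. Ankrd2, a stretch-responsive ankyrin repeat protein of muscle, read 365, 96.4 and 217 untreated and 215, 42.8 and 121 with cyclosporine. The myeloid receptor Siglec5 had differences of -0.68, -0.80 and -0.57, and Gpr84, a fatty acid receptor of myeloid cells, -0.52, -0.89 and -0.66. Fmo5, a flavin monooxygenase, read 790, 1005 and 564 against 516, 614 and 380. Ociad2, Ptprn (a secretory granule protein) and Kif3c (a kinesin) had mean differences of -0.57 ± 0.07, -0.75 ± 0.12 and -0.62 ± 0.08 (SE). Another probe set of Kif3c was too dim to test and had differences of -0.56, 0.42 and -0.30, so the gene's probe sets did not give the same result. The only probe set lower by at least 1 on all 3 days (0.00507% of those tested) has no gene name in the annotation and was chosen after its values were seen. It read 2555, 2390 and 118 untreated, 639, 509 and 44.5 with cyclosporine and 829, 784 and 48.2 with the peptide added. With an offset of 1 in place of 16 it was the only probe set called in the mean of 3 days (-1.87 ± 0.14 SE, adjusted p = 0.0256).

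Genes higher with cyclosporine on every day were fewer past 0.5 and smaller in size. They include genes of muscle metabolism, and Slc2a4 ranked last of the 15 named. Slc2a4, the insulin-responsive glucose transporter GLUT4 of muscle and fat, read 1841, 1850 and 1077 untreated, 2395, 3711 and 1534 with cyclosporine and 2246, 3374 and 1629 with the peptide added. It rose in the single-day test on day 3 (0.93 ± 0.08 SE, adjusted p = 0.0128) and on day 7 (0.55 ± 0.08 SE, adjusted p = 0.0115, 0.0576 without the peptide day 7 array). A second probe set of Slc2a4 gave 0.47, 0.87 and 0.12. Ppargc1a, a coactivator that promotes mitochondrial gene expression, read 955, 779 and 415 against 1184, 1347 and 561. Its relative Ppargc1b had differences of 0.14, 1.00 and 0.20. Both rose on day 3, at 0.70 ± 0.09 and 0.99 ± 0.13 (SE; adjusted p = 0.0195 for each).

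Genes of the beating muscle were level on day 1 and higher on days 3 and 7. Among 21 calcium handling and ion channel genes the medians were 0.08, 0.19 and 0.20, and 19 were higher on day 3. On all 3 days 10 were higher, against 16.7% of all probe sets. Kcnip2, the subunit that sets the transient outward potassium current, read 6086, 4647 and 2858 in untreated grafts and 6518, 7329 and 4472 with cyclosporine. It rose on day 3 (0.63 ± 0.06 SE, adjusted p = 0.0128) and day 7 (0.66 ± 0.06 SE, adjusted p = 0.0016). Hrc, a calcium-binding protein of the sarcoplasmic reticulum, read 4554, 3840 and 977 against 4932, 5009 and 1829, and rose on day 7 (0.90 ± 0.06 SE, adjusted p = 0.000551). Jph2, which ties the sarcoplasmic reticulum to the cell membrane, was higher by nearly the same amount each day, at 0.35, 0.36 and 0.40.

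The contractile list gave medians of -0.01, 0.18 and 0.18, with 10, 18 and 20 of 21 higher. Of the 21, 9 were higher on all 3 days, against 16.7% of all probe sets. Myh6, the alpha myosin heavy chain of the adult rat heart, read 3313, 1695 and 859 untreated and 3898, 3033 and 2035 with cyclosporine. The gap widened from 0.23 to 0.83 and 1.23, but the widening itself was not called. The treated test called Myh6 on day 3 (0.93 ± 0.10 SE, adjusted p = 0.0128) and day 7 (1.14 ± 0.10 SE, adjusted p = 0.00156). On day 7, 6 of the 21 rose, where 2.87% of all probe sets did, with a range of 4 to 7 when an array was left out. Ldb3, a Z-disc protein, was among them at 0.57 ± 0.07 (SE; adjusted p = 0.0063). Myot, another Z-disc protein, went the other way, at 390, 228 and 306 with cyclosporine against 657, 574 and 286, and fell on day 3 (-1.14 ± 0.18 SE, adjusted p = 0.0241).

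Mitochondrial respiration genes were level on day 1 and slightly higher afterwards. Of 31 oxidative phosphorylation genes, 7 were higher on day 1, 31 on day 3 and 30 on day 7, with medians of -0.03, 0.22 and 0.14. Cox8b, a heart isoform of a cytochrome oxidase subunit, read 9835, 6220 and 3064 untreated and 9397, 7997 and 4384 with cyclosporine. It rose by 0.37 ± 0.06 on day 3 (SE; adjusted p = 0.0242) and by 0.54 ± 0.06 on day 7 (SE; adjusted p = 0.00323). Cox7a1, another muscle isoform, rose on day 3 (0.73 ± 0.12 SE, adjusted p = 0.0257). The summed contractile signal, over 21 genes, was 247178, 224539 and 186059 in untreated and 248519, 246352 and 213512 in cyclosporine grafts. It was thus higher with the drug on days 3 and 7, the days on which the muscle and mitochondrial genes were higher, and its part in them was not tested.

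The remaining genes higher on all 3 days had varied roles. Col6a6, a chain of collagen VI, read 170, 379 and 60 untreated, 283, 545 and 256 with cyclosporine and 225, 502 and 312 with the peptide added. It rose on day 7 (1.97 ± 0.18 SE, adjusted p = 0.00157). Efnb3, a membrane-bound ephrin ligand, read 1332, 1482 and 679 against 1829, 2190 and 1001. Wipf3, of the family that binds the actin regulator WASP, read 734, 784 and 406 against 1024, 1307 and 620. A second tested probe set of Wipf3 gave smaller differences, 0.15, 0.17 and 0.40. Hlf, a PAR bZIP transcription factor tied to the circadian clock, read 161, 129 and 68.1 against 239, 252 and 124, while a weaker probe set of it, not tested, was lower on day 3 (-0.50). Mtnap1, a protein of the mitochondrial nucleoid, had 144, 207 and 186 against 266, 314 and 319, but 178, 216 and 211 with the peptide added, near the untreated grafts. The same held for Gpld1, a phospholipase that cuts GPI anchors, at 161, 106 and 105 untreated, 223, 188 and 169 with cyclosporine and 148, 104 and 90.9 with the peptide. Gabrb2, a subunit of the GABA-A receptor, Gfra3, a receptor for ligands of the GDNF family, Paqr9 and Nxpe1 had smallest differences of 0.42, 0.42, 0.41 and 0.44, and Nrk, a kinase, rose on day 7 (189 against 72.9, treated 1.13 ± 0.23 SE, adjusted p = 0.0323, up to 0.108 over the refits, of which 2 called it).

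**Figure D2:**
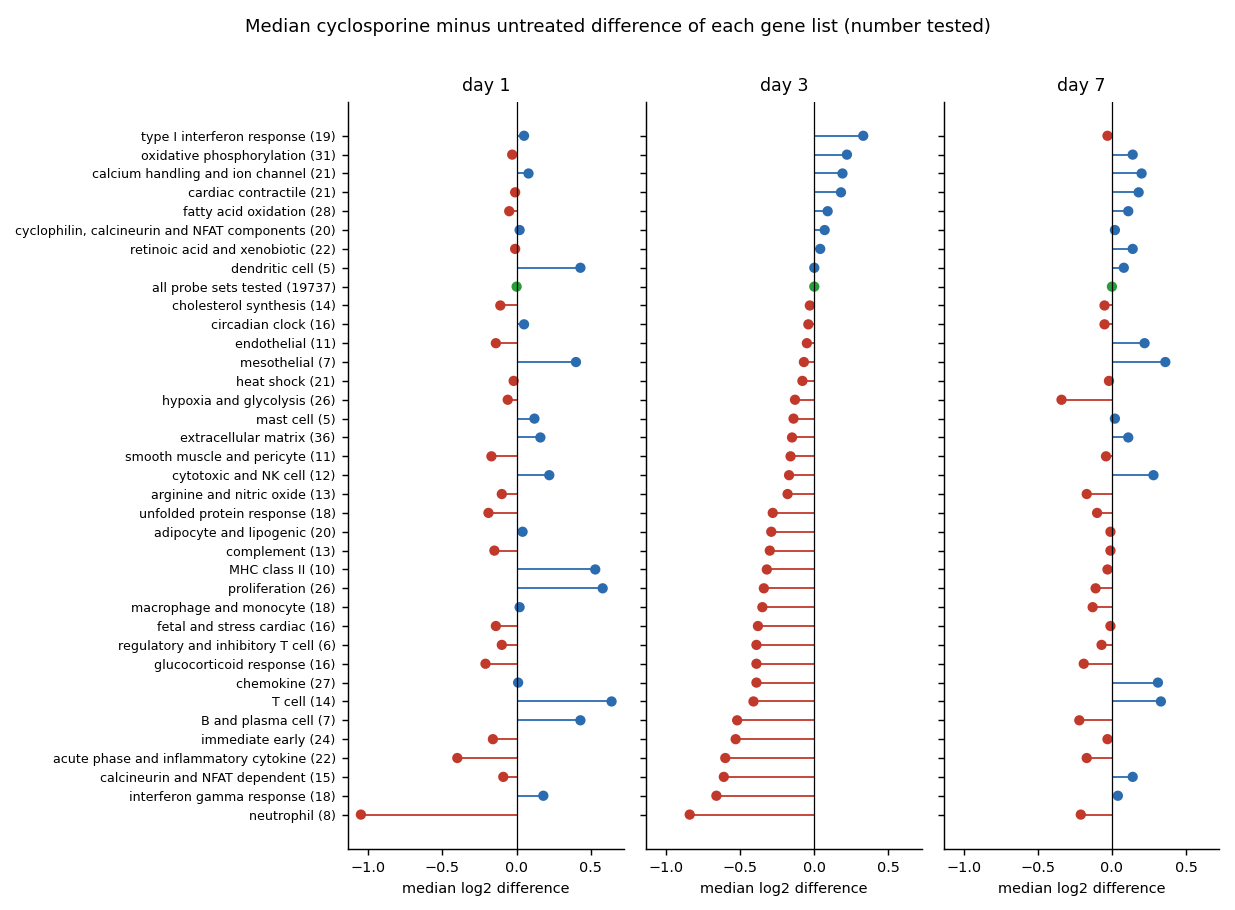
Median log2 difference, cyclosporine minus untreated, on days 1, 3 and 7 for each gene list with at least 5 tested members, sorted by day 3, with all tested probe sets shown in green. The neutrophil median lies at -1.05 on day 1, the T cell, proliferation and MHC class II medians are above 0.5 on day 1 and below 0 on day 3, and oxidative phosphorylation lies above 0 on days 3 and 7.

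The drug's own targets and the genes they control were then examined. The transcripts of cyclophilins, calcineurin subunits, NFAT factors and their regulators were near level, with medians of 0.02, 0.07 and 0.02 over 20 genes. Ppp3ca, a catalytic subunit of calcineurin, read 3608, 3341 and 3368 untreated and 3657, 3615 and 3412 with cyclosporine. Nfatc3 alone rose on day 3 (941 against 564, treated 0.64 ± 0.10 SE, adjusted p = 0.022). Myoz1, a muscle protein that binds calcineurin, rose on day 7 (0.69 ± 0.13 SE, adjusted p = 0.0246), a call lost without either treated array of day 1 or the peptide array of day 7 (adjusted p up to 0.114). Rcan2, a calcineurin regulator, was higher on each day at 0.27, 0.43 and 0.44, and Rcan1, whose transcription calcineurin induces, was lower on days 1 and 3 at -0.34 and -0.55 and level on day 7 at 0.01.

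Genes that depend on calcineurin and NFAT in T cells were furthest below control on day 3. Of 15 tested, 10, 13 and 5 were lower, with medians of -0.09, -0.61 and 0.14, and the step from day 1 to day 3 was called for 0 of them. Nr4a1, an orphan nuclear receptor induced by T cell receptor signalling, read 768, 1524 and 634 untreated and 667, 623 and 838 with cyclosporine. It fell on day 3 (-1.08 ± 0.17 SE, adjusted p = 0.0235), when the untreated graft was highest. Tnfrsf9 (4-1BB, a costimulatory receptor) read 177 untreated on day 3 and 63.3 with cyclosporine, and fell by 1.32 ± 0.27 (SE; adjusted p = 0.0456, up to 0.0822 without an array of day 3 or day 7). Ifng read 64.3, 88 and 478 untreated and 59.2, 50.4 and 393 with cyclosporine, none of which passed the test. Il2 itself was dim, between 28.8 and 51.7 in these 6 grafts, and was not tested. The T cell list summed to 2051, 4583 and 24817 in untreated and to 3278, 3146 and 30542 in cyclosporine grafts, so it too was lower with the drug on day 3 and higher on days 1 and 7. Its part in the NFAT list was not tested.

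Day 1 was marked by higher lymphocyte and cell division genes in the cyclosporine graft, with some single fat genes, none of which passed a test. The difference was at least 1 for 39 probe sets higher (0.198%) and 19 lower (0.0963%). T cell markers were higher for 13 of 14 members (median 0.64), MHC class II genes for 10 of 10 (0.53) and proliferation genes for 26 of 26 (0.58), where 50.7% of all probe sets were higher. Cd3e, a signalling chain of the T cell receptor, read 254 against 73. RT1-Ba, an MHC class II alpha chain, read 974 against 530, and Mki67, the antigen Ki-67 of dividing cells, 548 against 241. In the peptide graft of day 1 these were 135, 554 and 395, between the other grafts. Of 27 genes higher on day 1 alone, Scd (stearoyl-CoA desaturase, which makes monounsaturated fat) stood furthest out, at 964 against 61.5, a 12.6-fold difference, with 242 in the peptide graft. Adipoq (adiponectin, made by fat cells) read 576 against 177 and Car3 (carbonic anhydrase 3, abundant in fat and muscle) 2442 against 771. Jchain, which links antibody polymers, read 171 against 80, Fcrla (an Fc receptor-like protein of B cells) 387 against 178 and Bub1b (a mitotic checkpoint kinase) 101 against 30.2. The adipocyte list as a whole had a median of 0.04 on that day, with 12 of 20 higher, and a summed signal of 34642 against 32934. Only 2 genes were lower on day 1 alone. Cxcl13, a chemokine that attracts B cells, read 1028 against 2539 and 1271 in the peptide graft, and Loricrin 74.7 against 180 but 220 with the peptide.

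On day 3 the T cell, MHC class II and proliferation lists lay below control, where they had been above it on day 1, and interferon gamma response genes were lower with cyclosporine. The neutrophil, acute-phase and complement lists were lower on both days, with complement at medians of -0.15 and -0.30. Probe sets past 1 were 22 higher (0.111%) and 84 lower (0.426%), the reverse balance of day 1. All 14 T cell genes were lower (median -0.41), as were all 10 MHC class II genes (-0.32) and 25 of 26 proliferation genes (-0.34), with 0 of each list called. Of 18 interferon gamma response genes 17 were lower (median -0.66), and 9 fell in the treated test, where 1.12% of all probe sets did. With 1 array left out the count was between 4 and 10, and Cxcl9, Psmb8, Psmb9 and Socs1 were called in every refit. Cxcl9, a chemokine for activated T cells induced by interferon gamma, read 568, 1762 and 6117 untreated, 700, 521 and 9743 with cyclosporine and 465, 545 and 10520 with the peptide added. It fell on day 3 (-1.70 ± 0.19 SE, adjusted p = 0.0128), and a second probe set of it gave 0.22, -1.67 and 0.70. Cxcl10, a related chemokine, read 982, 2335 and 6970 against 1247, 823 and 8088 and fell on day 3 (-1.35 ± 0.23 SE, adjusted p = 0.0307, up to 0.0621 without the cyclosporine array of day 3 or either treated array of day 7). Ubd, a ubiquitin-like protein induced by interferon gamma, read 128, 587 and 11553 against 214, 153 and 12699. Socs1, the inhibitor that this pathway induces, read 58.8, 238 and 1170 against 66.4, 65.8 and 1319 and fell on day 3 (-1.57 ± 0.18 SE, adjusted p = 0.0132). The other probe set of Socs1 read 152 untreated and 177 with cyclosporine on day 3, so the Socs1 result rests on 1 of its probe sets. By day 7 the transcripts Cxcl9, Cxcl10, Ubd and Socs1 were higher in both groups than on day 3, and the cyclosporine graft was no longer the lower. Type I interferon genes were mostly higher on day 3, with a median of 0.33 and 13 of 19 higher. In the treated test 2 rose and 1 fell, where 1.38% and 1.12% of all probe sets did. Irf7, a transcription factor of this response, rose (0.48 ± 0.08 SE, adjusted p = 0.0254) and was called in all 6 refits. Mx1, an antiviral GTPase, rose (0.60 ± 0.12 SE, adjusted p = 0.0446), a call that held in 1 of 6 refits. Bst2 (tetherin, which holds budding virus on the cell) fell (-0.32 ± 0.06 SE, adjusted p = 0.0332), a call lost in some refits.

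Other genes set day 3 apart. Sprr1a, a small proline-rich protein induced by stress, read 690 untreated against 123 with cyclosporine and fell by 2.10 ± 0.33 (SE; adjusted p = 0.0241). Pck1, a key enzyme of gluconeogenesis also used by fat cells, read 827 against 271 (-1.77 ± 0.24 SE, adjusted p = 0.0202). Cidec, a protein of lipid droplets, read 285 against 69.5 (-1.84 ± 0.28 SE, adjusted p = 0.0222) and did not pass the filter on dim probe sets without the cyclosporine array of day 1 or the peptide array of day 7, so that 4 of 6 refits called it. The adipocyte list summed to 38400 in the untreated and 31434 in the cyclosporine graft on that day, with a median of -0.29 and 15 of 20 lower, and its part in Cidec and Pck1 was not tested. Wfdc18, a secreted whey acidic protein family member, read 802 against 228 (-1.73 ± 0.29 SE, adjusted p = 0.0295, 0.0555 without the cyclosporine day 3 array). The genes higher on day 3 alone were 6, among them Prodh, Mapt and Lmod3. Prodh, which starts proline breakdown in mitochondria, read 399, 181 and 43.3 untreated and 303, 577 and 55.5 with cyclosporine, and rose on day 3 (1.57 ± 0.18 SE, adjusted p = 0.0132). A dimmer probe set of Prodh, not tested, gave 0.13. Mapt, the microtubule protein tau, rose by 0.94 ± 0.15 (SE; adjusted p = 0.0241), and its 2 other probe sets gave 0.70 and 0.84 on that day. Lmod3, which builds thin filaments of muscle, read 458 against 220 (0.86 ± 0.16 SE, adjusted p = 0.0369, up to 0.067 over the refits, of which 1 called it). A dimmer probe set of Lmod3, not tested, gave -0.54, 0.36 and 0.63 on the 3 days, so it was highest on day 7.

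**Figure D3:**
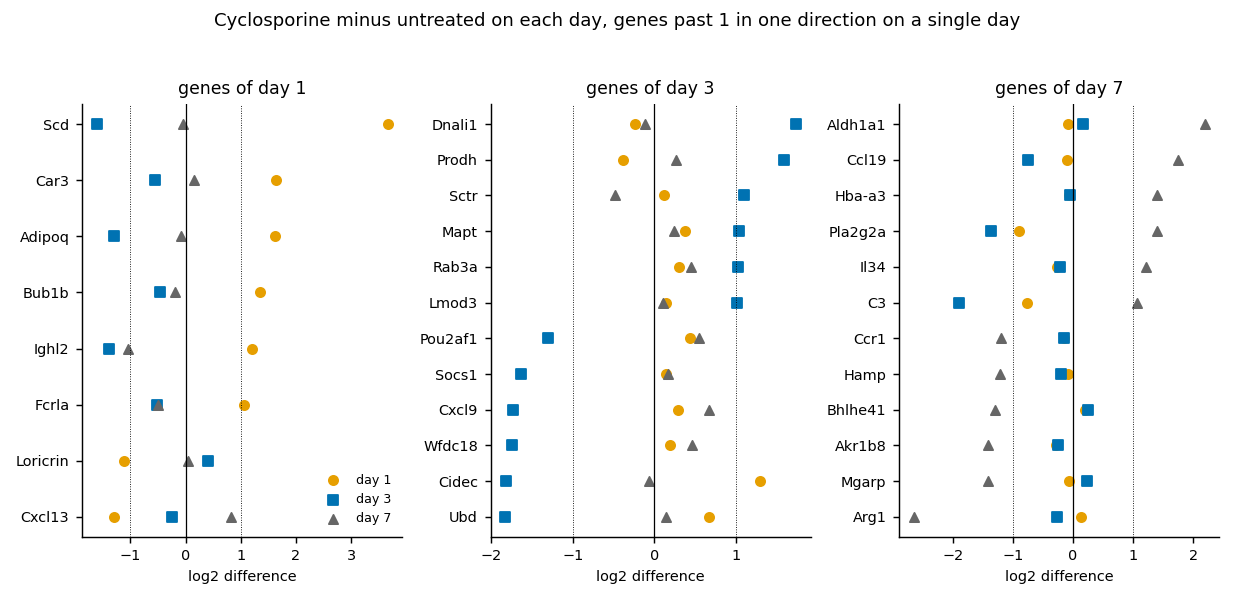
Log2 difference, cyclosporine minus untreated, on day 1 (orange circles), day 3 (blue squares) and day 7 (grey triangles) for genes past 1 in a direction on a single day, with dotted lines at -1 and 1. The Scd difference of 3.66 on day 1 and the Arg1 difference of -2.65 on day 7 lie furthest from 0 on their days, and several genes of day 1 or day 7 have the opposite sign on day 3.

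On day 7 the balance had turned to higher probe sets, with 81 past 1 (0.41%) against 38 lower (0.193%). Arg1, an arginase of the urea cycle that macrophages also make, had the called difference furthest from 0. It read 2196, 3129 and 7743 untreated, 2404, 2598 and 1217 with cyclosporine and 1978, 3068 and 1247 with the peptide added, so the increase of the untreated graft between days 3 and 7 was not seen in either treated graft. The treated difference on day 7 was -2.64 ± 0.13 (SE; adjusted p = 0.000353), and it differed from that on day 3 by -2.49 ± 0.18 (SE; adjusted p = 0.00356). Macrophage markers as a list were at a median of -0.13 on day 7, with 14 of 18 lower and a summed signal of 115211 against 127999. In the treated test of day 7, 4 of them fell, where 1.39% of all probe sets did, each call lost in some refit. The list had been further below control on day 3, with 17 of 18 lower (median -0.35) and a summed signal of 63690 against 77884. Of 13 genes of arginine and nitric oxide metabolism, 3 fell and 1, Ddah2, rose on day 7, where 1.39% and 2.87% of all probe sets did. Ass1, which feeds arginine synthesis, read 6958 untreated and 4280 with cyclosporine (-0.73 ± 0.13 SE, adjusted p = 0.0184, up to 0.0949 without either treated day 7 array). It had also fallen on day 3, by about the same amount (-0.77 ± 0.13 SE, adjusted p = 0.0278, up to 0.0509 without either treated day 7 array). Gch1, which makes the nitric oxide synthase cofactor, read 826 against 550 (-0.57 ± 0.11 SE, adjusted p = 0.0292, up to 0.114 over the refits, of which 2 called it).

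Hypoxia and glycolysis genes were lower on day 7, 25 of 26 of them, with medians of -0.06, -0.13 and -0.34. Of the 26, 14 were lower on all 3 days, against 15.5% of all probe sets. In the treated test 9 fell and 1 rose on day 7, against 1.39% and 2.87% of all probe sets, and 5 of the 9 were called in every refit. Slc16a3, the lactate exporter MCT4, read 1430, 1551 and 3107 untreated and 1082, 1430 and 1564 with cyclosporine (-0.96 ± 0.07 SE on day 7, adjusted p = 0.00111). Hmox1, the heme-degrading oxygenase, read 4666, 9297 and 11021 against 4262, 6970 and 4849 (-0.94 ± 0.16 SE on day 7, adjusted p = 0.0161). Adm, the vasodilator adrenomedullin, read 1189 against 586 on day 7 (-0.83 ± 0.15 SE, adjusted p = 0.0195). Mgarp, a mitochondrial protein induced in hypoxia, read 583 against 210 (-1.55 ± 0.18 SE, adjusted p = 0.00365). It was too dim to be tested when either treated day 7 array was left out. Bhlhe41, a transcriptional repressor linked to the clock and to hypoxia, read 1108, 1042 and 2061 untreated and 1270, 1230 and 832 with cyclosporine, and fell on day 7 (-1.21 ± 0.10 SE, adjusted p = 0.00137). Hamp, the iron hormone hepcidin, read 7485, 4443 and 2742 against 7092, 3877 and 1171 (-1.07 ± 0.11 SE, adjusted p = 0.00238). Ccr1, a chemokine receptor of myeloid cells, read 1148 against 494 on day 7 (-1.08 ± 0.12 SE, adjusted p = 0.00306). On days 1 and 3 the differences of these 7 genes had been smaller in size, between -0.41 and 0.24.

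Genes called higher on day 7 included several of the matrix, endothelial, chemokine and complement lists. Aldh1a1, a retinaldehyde dehydrogenase, read 3721, 2046 and 146 in untreated grafts and 3509, 2298 and 722 in cyclosporine grafts, and was lowest on day 7 in both. It rose on day 7 (2.48 ± 0.19 SE, adjusted p = 0.00101). Abca8a, a lipid transporter of the ABC family, behaved alike, at 2153, 1333 and 96.5 against 2520, 2104 and 417 (2.10 ± 0.12 SE on day 7, adjusted p = 0.000474). Ccl19, the chemokine that guides cells bearing CCR7, read 595, 878 and 612 untreated and 553, 516 and 2099 with cyclosporine (1.90 ± 0.12 SE on day 7, adjusted p = 0.000474). Il34, a ligand of the macrophage growth factor receptor CSF1R, read 381, 387 and 203 against 315, 330 and 493 (1.17 ± 0.13 SE, adjusted p = 0.00333). C3, the central complement protein, was lower on day 3, at 814 against 3057, and higher on day 7, at 7603 against 3603. Its treated differences were -1.83 ± 0.16 (SE; adjusted p = 0.0118) and 1.18 ± 0.16 (SE; adjusted p = 0.0063). The complement list as a whole was level on day 7, with a median of -0.01 and 6 of 13 higher, after 12 of 13 had been lower on day 3 (median -0.30). On day 3 C1r, C3, C6 and Cfd fell, where 1.12% of all probe sets did, and C3 and C6 were called in all 6 refits. On day 7 C1r, C1s, C3 and Serping1 rose, where 2.87% of all probe sets did, and C1r, C1s and C3 were called in all 6 refits. Cd59b, an inhibitor of the membrane attack complex, fell on day 7 (-0.43 ± 0.08 SE, adjusted p = 0.0193, 0.0832 without the peptide day 7 array), where 1.39% did. Cxcl13 also turned, from 1028 against 2539 on day 1 to 5145 against 2888 on day 7 (0.86 ± 0.12 SE, adjusted p = 0.00921). Of 27 chemokines 19 were higher on day 7 (median 0.31) after 22 had been lower on day 3 (median -0.39), with 6 falling on day 3 and 5 rising on day 7, where 1.12% and 2.87% of all probe sets did. Ccl4 and Cxcl9 of the 6, and Ccl19, Ccl21, Cxcl12 and Cxcl13 of the 5, were called in all 6 refits. Pla2g2a, a secreted phospholipase of the acute phase, read 3164, 10491 and 2693 untreated and 1691, 4040 and 7092 with cyclosporine. Its treated difference was -1.70 ± 0.36 on day 3 (SE; adjusted p = 0.0499, up to 0.0919 without an array of day 7 or the peptide array of day 3) and 1.51 ± 0.36 on day 7 (SE; adjusted p = 0.0567), and the step between those days was 3.21 ± 0.50 (SE; adjusted p = 0.0279, 0.0878 without the peptide day 7 array).

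Matrix and endothelial genes were also mostly higher on day 7, while smooth muscle and pericyte genes were not (5 of 11 higher, median -0.04). Of 36 extracellular matrix genes 23 were higher on day 7 (median 0.11), where 50.2% of all probe sets were. More of them, 29, had been higher on day 1 (median 0.16), and 29 were lower on day 3 (median -0.15). In the treated test 8 rose and 3 fell, where 2.87% and 1.39% of all probe sets did, and with 1 array left out between 5 and 16 rose. Fbn1 (fibrillin 1, of elastic fibres) read 3437 against 2145 (0.64 ± 0.07 SE, adjusted p = 0.00291) and Loxl1, which crosslinks elastin, 3088 against 1967 (0.68 ± 0.10 SE, adjusted p = 0.00792). Kdr, the endothelial VEGF receptor, read 2360 against 1508 (0.55 ± 0.09 SE, adjusted p = 0.0134), and 10 of 11 endothelial genes were higher on day 7 (median 0.22). Hbb (beta globin) read 12840 against 6669 (1.02 ± 0.14 SE, adjusted p = 0.00674) and Hba-a3 (an alpha globin) 1544 against 576. The T cell list was again higher with cyclosporine on day 7, for 12 of 14 members (median 0.33, 0 called), while proliferation was slightly lower for 25 of 26 (median -0.11). In the peptide graft of day 7, which enters these tests, 8 exocrine pancreas genes summed to 3763, against 403 to 544 in the other 8 hearts, and its part in the day 7 calls was not tested.

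**Figure D4:**
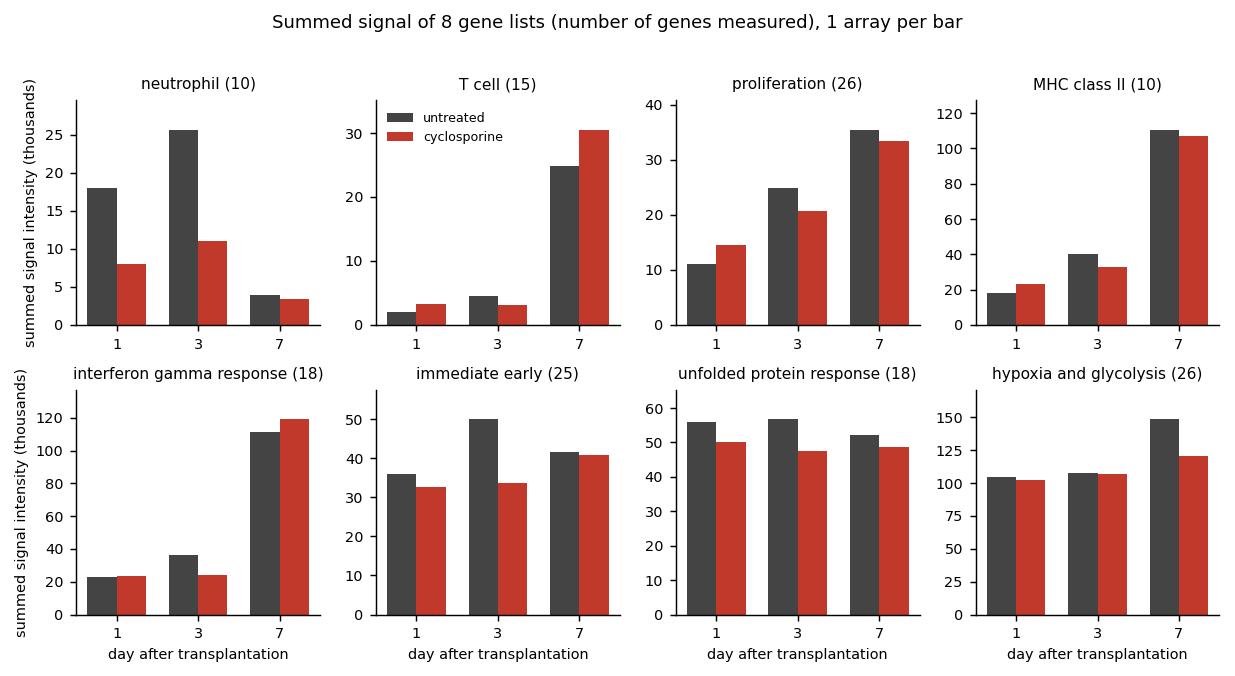
Summed signal divided by 1000 (linear axis from 0) of 8 gene lists in the untreated and cyclosporine grafts by day, 1 array per bar. Neutrophil genes are lower with cyclosporine on days 1 and 3 (7962 and 11088 against 17957 and 25671), and T cell genes reach 24817 untreated and 30542 with cyclosporine on day 7.

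Whether the drug difference itself changed over time was tested in 2 ways. A slope on log2(day) was called for 0 probe sets by limma (0%), with 101 at an unadjusted p below 0.05 (0.512%). Between single days, the treated difference changed for 0 probe sets from day 1 to day 3 (2052 at an unadjusted p below 0.05, 10.4%), for 218 from day 3 to day 7 (1.1%), 162 upward (0.821%) and 56 downward (0.284%), and for 97 from day 1 to day 7 (0.491%), 76 upward (0.385%) and 21 downward (0.106%). Of these, 84 and 18 were called in all 6 refits without an array. Genes past 1 on a single day alone were 27 higher and 2 lower on day 1, 6 higher and 42 lower on day 3 and 42 higher and 13 lower on day 7.

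Some genes turned sign by at least 1 in each direction between days. Scd went from 3.66 on day 1 to -1.61 on day 3, Adipoq from 1.62 to -1.29 and Cd3e from 1.60 to -1.18. A second probe set of Cd3e had the same signs and smaller sizes, at 0.87 and -0.49. In the untreated graft these 3 genes were lowest on day 1 and higher on day 3 (Scd 61.5 and 391, Adipoq 177 and 969, Cd3e 73 and 372), while in the cyclosporine graft they were lower on day 3 than on day 1 (964 and 117, 576 and 387, and 254 and 155). The step of the treated difference from day 1 to day 3 was not called by limma for any of them, with an adjusted p of 0.165 for Adipoq and for Cd3e.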

How the data were processed

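RNA was measured on 18 expression arrays, 9 of rat heart allografts and 9 of T cells, 1 per tissue, treatment and day. The authors deposited linear intensities, 1 for each array and probe set. How they were normalized, and with which software, is not given in the sources used here. Labelled cRNA was made with an Enzo amplification kit, per the labels' protocols. Of all intensities, 771 (0.138%) lay below 0. The number of arrays limits the precision.

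Values below 0 were set to 0, 16 was added and log2 taken, with no further scaling. Of 31099 probe sets, 57 controls were left out. Of the other 31042, 20826 had 1 gene symbol in the platform annotation, 436 several and 9780 none there, and 20758 matched the reference table by Entrez identifier, which changed 0 symbols. Of several probe sets of a gene, that with the highest mean over all 18 arrays stood for it, which gave 14217 genes. Probe sets above their array's 40th percentile on at least 3 heart arrays were tested. Tests used limma 3.58.1 (eBayes with trend, statmod 1.5.0) in R 4.3.3 with Benjamini-Hochberg adjusted p-values over 19737 probe sets, at 0.05. The fits were also run on simulated data with known changes and the same spread on every array. That simulation took the assumptions of the single-day test as given and did not check them. The 3 same-day differences were fitted with day as a factor, so arrays were paired by day, as the design gives it. A single day, and differences between days, were tested with both cyclosporine-given arrays against the untreated one. Tables and figures used Python 3.11.15, pandas 2.3.3, numpy 2.4.6 and matplotlib 3.10.9.

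The groups compared, the lists (40, with 767 entries, 682 of them measured) and the tests were chosen with earlier results of these data known. Named genes were, per direction, the 15 with the largest smallest same-day difference of 1 sign, the 6 per day with the largest gap to the other days, up to 6 that turned, up to 4 per list by mean difference with all members of the neutrophil, acute-phase, heat shock, NFAT-dependent and calcineurin lists, and up to 4 per day and direction in the single-day test. Other members named only as called in a list, and the probe set with no name, were chosen after their values were seen. Alternatives were quantile normalization, centring on array medians, offsets of 1 and 64, no filter or the 60th percentile, only the 6 arrays, no day factor, eBayes without trend, another probe set per gene, and leaving out days or arrays. Leaving out treated arrays in the single-day test and list medians over all measured members were added after seeing the data.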

Additional observations from a re-analysis of the deposited data

Results flagged for a closer look

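The difference between treated and untreated grafts (both cyclosporine-given arrays of a day against the untreated one) itself changed between days for 13 of the genes named for a difference past 1 on a single day or for a turn of sign, by limma's test of the change over all probe sets. Of all probe sets, 1.1% were called from day 3 to day 7 and 0.491% from day 1 to day 7. The genes were named by their gaps between days on the same arrays, so these calls are not independent support. Other named genes also passed that test, among them Abca8a, Col6a6, Hrc and Slc16a3. From day 3 to day 7 the difference moved upward for C3 by 3.02 ± 0.22 (SE; adjusted p = 0.00356), Ccl19 by 2.62 ± 0.18 (adjusted p = 0.00356), Cxcl9 by 2.42 ± 0.27 (adjusted p = 0.00885), Aldh1a1 by 2.31 ± 0.26 (adjusted p = 0.0105) and Il34 by 1.48 ± 0.19 (adjusted p = 0.0134). These 5 changes were called in all 6 refits without an array. It also moved upward for Pla2g2a by 3.21 ± 0.50 (adjusted p = 0.0279), Socs1 by 1.78 ± 0.26 (adjusted p = 0.0211) and Cxcl13 by 1.20 ± 0.17 (adjusted p = 0.0215), and these were not called without the peptide array of day 7 (adjusted p of 0.0878, 0.0809 and 0.0714).

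From day 3 to day 7 the difference moved downward for Arg1 by -2.49 ± 0.18 (SE; adjusted p = 0.00356) and Bhlhe41 by -1.46 ± 0.14 (adjusted p = 0.00726), both called in all 6 refits. Mgarp moved by -1.78 ± 0.25 (adjusted p = 0.02), Ccr1 by -0.90 ± 0.16 (adjusted p = 0.048) and Hamp by -0.84 ± 0.15 (adjusted p = 0.0463). Mgarp was too dim to test without either treated day 7 array, Ccr1 was called in 1 of 6 refits and Hamp in 2.

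From day 1 to day 7 the difference moved upward for Aldh1a1 by 2.57 ± 0.26 (SE; adjusted p = 0.0115), Cxcl13 by 2.00 ± 0.17 (adjusted p = 0.00846), Ccl19 by 1.95 ± 0.18 (adjusted p = 0.00846), C3 by 1.75 ± 0.22 (adjusted p = 0.0224) and Il34 by 1.39 ± 0.19 (adjusted p = 0.0266). It moved downward for Arg1 by -2.63 ± 0.18 (adjusted p = 0.006), Bhlhe41 by -1.33 ± 0.14 (adjusted p = 0.0133) and Hamp by -0.98 ± 0.15 (adjusted p = 0.0403). Without a single array the calls of C3 (peptide day 7 left out, adjusted p = 0.0567), Il34 (called in 3 of 6 refits) and Hamp (called in 4 of 6) were lost.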

How the results depend on the processing

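The values of 30 genes lower or higher on every day and of 42 single-day genes kept their sign under the alternatives run on their own probe sets. This was largely fixed in advance. The 30 genes were chosen for 1 sign on all 3 days, and another offset cannot turn the sign of a same-day difference. Other probe sets of Kif3c (0.42), Hlf (-0.50), Socs1 (0.20) and Dnali1 (-0.45) had the opposite sign on day 3. Of 36 list medians of the mean difference, 14 changed sign in at least 1 alternative, 43 of 720 values. Without day 3 that of NFAT-dependent genes was 0.09 (-0.27 with all days) and that of interferon gamma response genes 0.10 (-0.15). Mast cell genes gave -0.05 without day 1 (0.10), and circadian clock genes -0.11 without the untreated day 3 array (0.01). The count of 0 in the mean of 3 days was 1 with an offset of 1, ranged from 0 to 4 when a day or an array was left out (4 without day 7 or its untreated array, 3 without the untreated day 1 array) and stayed at 0 with no replicate block, where 106 had an unadjusted p below 0.05, against 2288. In the single-day test, counts without 1 cyclosporine-given array ranged from 0 to 9 on day 1 (9 without the cyclosporine or the peptide array of day 3, 2 without the peptide array of day 1), from 263 to 634 on day 3 and from 339 to 1077 on day 7 (339 without the peptide array of day 7). On day 3 they were 263 and 283 without the cyclosporine arrays of days 1 and 7, and 265 and 288 without the peptide arrays of those days. Changes between days ranged from 0 to 47 (days 1 and 3, 47 without the peptide array of day 1), 107 to 371 (days 3 and 7, 107 and 371 without the peptide arrays of days 7 and 3) and 29 to 175 (days 1 and 7). For days 1 and 7 they were 29, 173 and 156 without the cyclosporine arrays of days 1, 3 and 7, and 31, 175 and 42 without the peptide arrays. Centring on medians gave 61 there, against 97. The causes were not tested. The single-day values of Bub1b (0.80) and Pou2af1 (-0.69) moved with an offset of 64. A single array per treatment and day limits every comparison, and the deposited scale and background correction are unknown.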
